A study of Mus musculus with 8 samples.

Results

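The genes described here were 8 genes of catecholamine synthesis and reception, of 45583 gene symbols in the count table. They were the synthesis enzymes *Th*, *Ddc* and *Dbh*, the dopamine receptors *Drd1*, *Drd2* and *Drd4* and the adrenoceptors *Adra1a* and *Adrb1*. They were chosen by symbol, with earlier results of the comparison of libraries labelled GOAT KO and WT known, so their levels and differences are given as a description and without a test. All 8 were found in the table. In every library *Th*, *Ddc* and *Drd4* lay above 1 CPM (counts per 1000000 counts of the library), and *Dbh*, *Drd1*, *Drd2*, *Adra1a* and *Adrb1* lay below it.

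Catecholamines are made from tyrosine, which tyrosine hydroxylase (*Th*) turns into L-DOPA and DOPA decarboxylase (*Ddc*) turns on into dopamine. Dopamine beta-hydroxylase (*Dbh*) makes noradrenaline from dopamine inside vesicles of sympathetic neurons and chromaffin cells. Dopamine acts on D1-like receptors, which raise cyclic AMP, and D2-like receptors, which lower it, while noradrenaline and adrenaline act on alpha and beta adrenoceptors. The ovary receives sympathetic nerve fibres, and beta adrenoceptors have been described on its steroid-producing cells.

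The study sequenced ovary RNA of 3-week-old female C57/Bl6 mice, 4 WT and 4 GOAT KO, as 50 bp single reads, 1 library per mouse. GOAT KO mice carry a global deletion of *Mboat4*, the gene of ghrelin-O-acyltransferase, by which ghrelin is acylated. Both genotypes came from crosses between heterozygotes and received no treatment. Libraries carry their animal numbers, 1118 to 1121 for WT and 1139, 1140, 1141 and 1146 for GOAT KO.

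Gene counts summed to between 16147216 and 19481798 per library, so 1 CPM stood for about 16 to 19 counts. *Mboat4* had 1 to 3 counts in the libraries labelled WT and 5 to 8 in those labelled GOAT KO, a direction against the labels. These counts stood for at most 0.465 CPM. With 0 reads over its 2 annotated introns, they do not show a spliced *Mboat4* transcript in either group. Their origin was not tested, and the group names below are those of the labels. In a multidimensional scaling of the libraries GOAT KO 1139 stood apart on the first dimension, at 1.21 against -0.47 to 0.17 for the rest. On the second dimension WT 1120 lay at -0.43 and WT 1118 at 0.76, with the remaining WT libraries at 0.11 and 0.13. Results are also given for 6 libraries, without WT 1120 and GOAT KO 1139, and WT 1118 was kept. This set was chosen with earlier results known. The granulosa genes *Foxl2*, *Amh*, *Fshr*, *Nr5a2* and *Inha* summed to 4357 to 5383 CPM and 5 oocyte genes to 884 to 1062 CPM, so granulosa cells and oocytes were represented in every library.

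Reads that cross an exon join show that a spliced transcript of the gene was present, and the joins seen in these libraries are printed for that reason. Each sequence is the end of 1 coding exon in lower case and the start of the next in capitals, 20 bases of each, from the GENCODE transcripts of GRCm38, 5′ to 3′ on the gene's strand. *Drd4* was joined across all 3 of its introns. The join of exons 1 and 2 spans the intron chr7:141292314-141293712 on the plus strand, the next one chr7:141293826-141293912 and the last one chr7:141294485-141294658.
Drd4 exons 1 and 2: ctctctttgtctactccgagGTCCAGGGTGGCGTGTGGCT
Drd4 exons 2 and 3: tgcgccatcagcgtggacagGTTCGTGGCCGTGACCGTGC
Drd4 exons 3 and 4: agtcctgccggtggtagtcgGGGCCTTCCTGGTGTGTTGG
For *Th* the most often crossed join was that of exons 8 and 9, over the intron chr7:142895159-142895316 on the minus strand, with 29 reads in 7 libraries. The join of exons 6 and 7, over chr7:142895669-142896028, had 22 reads in 5 libraries.
Th exons 8 and 9: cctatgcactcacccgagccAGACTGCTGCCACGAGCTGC
Th exons 6 and 7: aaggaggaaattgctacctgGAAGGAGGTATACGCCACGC
For *Ddc* the join of exons 13 and 14, over chr11:11815429-11819290 on the minus strand, had 9 reads in 2 libraries, and that of exons 12 and 13, over chr11:11819393-11822194, had 7 reads in 2 libraries.
Ddc exons 13 and 14: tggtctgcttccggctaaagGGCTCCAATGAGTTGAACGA
Ddc exons 12 and 13: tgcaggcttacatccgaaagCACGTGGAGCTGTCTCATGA
For *Dbh* 3 joins had 1 read each, over chr2:27171489-27172703, chr2:27177753-27178187 and chr2:27181631-27182665 on the plus strand.
Dbh exons 4 and 5: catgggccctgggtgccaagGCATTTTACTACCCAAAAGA
Dbh exons 8 and 9: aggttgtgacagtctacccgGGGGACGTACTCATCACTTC
Dbh exons 11 and 12: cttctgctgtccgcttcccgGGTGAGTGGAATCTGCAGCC
*Drd1*, *Drd2*, *Adra1a* and *Adrb1* had 0 reads over annotated introns in the 8 libraries, at 8, 10, 82 and 36 counts in all. At so few counts this does not show that their transcripts were absent.

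Levels of the 8 genes were compared with each other as CPM per kilobase of annotated exon, averaged over 8 libraries. *Th* was the highest of them with 2.06 CPM per kilobase, followed by *Drd4* with 0.826 and *Ddc* with 0.569. *Dbh* lay at 0.153, *Adrb1* at 0.0758, *Adra1a* at 0.0674, *Drd2* at 0.0285 and *Drd1* at 0.0159 CPM per kilobase. Not every step in this order was clear of the spread between libraries. *Ddc* lay above *Dbh*, and *Adra1a* above *Drd2*, in 8 of 8 libraries, while *Drd4* lay above *Ddc* in only 4 of 8. *Adrb1* and *Adra1a* kept this order in 6 of 8 libraries, as did *Drd2* and *Drd1*. With the longest transcript as the length, *Ddc* (1.26) came before *Drd4* (0.998) and *Adra1a* (0.137) before *Adrb1* (0.0869). The values nearest to the 1 CPM mark were those of *Drd4* in WT 1121, with 1.14 CPM, and *Adra1a* in GOAT KO 1139, with 0.897 CPM.

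**Figure D1:**
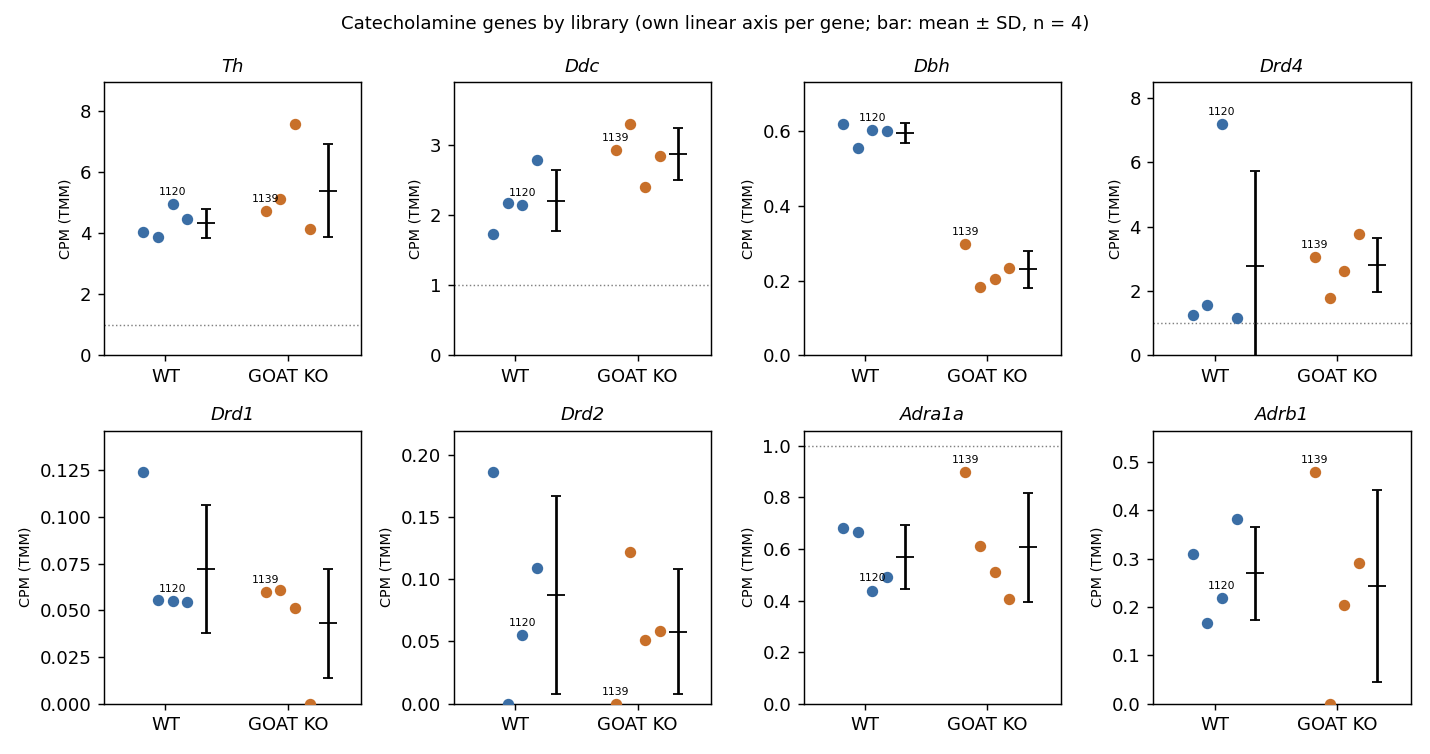
CPM of the 8 genes in each library (vertical axis, linear, own scale per gene, dotted line at 1 CPM where in range), with WT in blue, GOAT KO in orange and the mean ± SD of 4 libraries as a black bar, of which the lower end for *Drd4* in WT falls under 0 and is not drawn. WT 1120 and GOAT KO 1139 carry their animal numbers, and the *Dbh* values of the groups do not overlap, while *Drd4* in WT 1120 lies at 7.19 CPM.

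*Th* (chr7:142892752-142931128, minus strand) encodes the enzyme of the first and rate-limiting step. The libraries labelled WT 1118, 1119, 1120 and 1121 held 65, 70, 90 and 82 *Th* counts. The libraries labelled GOAT KO 1139, 1140, 1141 and 1146 held 79, 84, 148 and 71, and this order of animals is kept for the other genes. GOAT KO 1141 was the highest library, and the groups overlapped. The level averaged 4.33 ± 0.475 CPM among WT and 5.39 ± 1.51 CPM among GOAT KO libraries (SD, n = 4 each), a log2 fold change of 0.32 (SE 0.19). With 6 libraries the log2 fold change was 0.45 (SE 0.22), and without GOAT KO 1141 it was 0.10. Reads over annotated *Th* introns numbered 113, on 9 of 17 introns, and made up 16.4% of the gene's counts (exact 95% interval 13.7 to 19.4%). Every library held such reads, namely 5, 14, 15 and 13 for WT, then 7, 23, 28 and 8 for GOAT KO.

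*Ddc* (chr11:11814101-11898144, minus strand) encodes the decarboxylase that forms dopamine and also serotonin. The WT libraries held 28, 39, 39 and 51 counts and the GOAT KO libraries 49, 54, 47 and 49. The lowest 3 libraries were WT, and the highest WT library, 1121, lay within the GOAT KO range. Mean levels were 2.21 ± 0.431 CPM for WT and 2.87 ± 0.367 CPM for GOAT KO, with a log2 fold change of 0.37 (SE 0.18), and of 0.34 (SE 0.22) with 6 libraries. Reads over annotated introns numbered 35, of which 8 were in WT and 27 in GOAT KO libraries. In the coding transcript with the most exons, introns 9, 10, 12 and 13 of 14 were crossed, all in the 3′ part of the gene, and introns 1 to 8 were not. The antisense gene *1700042O10Rik*, whose span covers exons 2 to 4 of that transcript on the other strand, had 0 to 2 counts per library, and how reads shared by overlapping genes were counted is not given in the sources used here.

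*Dbh* (chr2:27165233-27183200, plus strand) encodes the enzyme that marks noradrenaline-producing cells. *Dbh* counts were 10, 10, 11 and 11 for the WT libraries, against 5, 3, 4 and 4 for the GOAT KO libraries. All 4 GOAT KO libraries lay below all 4 WT libraries, and neither WT 1120 nor GOAT KO 1139 stood apart from its group. Of the 27459 genes with a count, 1.05% had all libraries labelled GOAT KO below all labelled WT, and 1 of the 8 genes did. Summed over the group, counts were 42 in WT (exact Poisson 95% interval 30.3 to 56.8) and 16 in GOAT KO (9.15 to 26.0), and these intervals cover counting error only. The mean was 0.595 ± 0.0274 CPM for WT and 0.230 ± 0.0503 CPM for GOAT KO, with a log2 fold change of -1.35 (SE 0.37), and of -1.49 (SE 0.51) with 6 libraries. *Dbh* did not pass the filter on low counts, which asked for 0.566 CPM in 4 libraries, since WT 1119 lay at 0.556 CPM. In bulk tissue fewer cells of a type and less RNA per cell cannot be told apart.

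Of the markers of sympathetic neurons and chromaffin cells, *Phox2a* had 1 count in all 8 libraries together, *Npy* 8 and *Hand2* 9. *Prph*, a neuronal intermediate filament of the same list, had 43 counts over the WT and 89 over the GOAT KO libraries. Its groups overlapped, and its log2 fold change was 1.07 (SE 0.41) with 8 libraries and 0.97 (SE 0.38) with 6. Of the 5 tested markers *Prph* alone met the study's filter described further on, which 1.67% of all tested genes met. Its edgeR adjusted p was 0.983. For the other tested markers, *Chga*, *Stmn2*, *Chgb* and *Snap25*, the log2 fold changes were 0.21, 0.19, 0.10 and -0.05 with 8 libraries. The summed level of the 9 markers was 5.56 to 7.87 CPM among WT and 7.32 to 9.11 CPM among GOAT KO libraries, with *Chga* contributing the largest share. These ranges overlapped, whereas those of *Dbh* did not. *Slc6a2*, the noradrenaline transporter of the same neurons, had 22 counts in WT and 31 in GOAT KO. *Pnmt*, which converts noradrenaline to adrenaline, had 15 and 14 counts. The 5 adrenal cortex markers summed to 0.167 to 3.51 CPM among WT and 0.672 to 5.44 CPM among GOAT KO libraries, highest in GOAT KO 1139. The part of adjoining tissue in the levels of *Th*, *Ddc* and *Dbh* was not tested.

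*Drd4* (chr7:141292006-141296464, plus strand) encodes a D2-like receptor and was the one dopamine receptor above 1 CPM. Among the WT libraries it had 20, 28, 131 and 21 counts, and among the GOAT KO libraries 51, 29, 51 and 65. WT 1120 held the highest value of all libraries, 7.19 CPM, and the other 3 WT libraries, at 1.14 to 1.56 CPM, lay below all 4 GOAT KO libraries, at 1.77 to 3.78 CPM. With 8 libraries the WT mean was 2.78 ± 2.94 CPM and the GOAT KO mean 2.80 ± 0.839 CPM, a log2 fold change of 0.0025 (SE 0.55). Without WT 1120 the log2 fold change was 1.09, and without WT 1118 it was -0.23. With 6 libraries the means were 1.31 ± 0.215 and 2.72 ± 1.01 CPM (SD, n = 3 each), a log2 fold change of 1.05 (SE 0.29). The *Drd4* difference thus turned on 1 library.

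The reads over *Drd4* introns were also uneven. Of 25 such reads 20 were in WT 1120, 1 in WT 1119, 2 in GOAT KO 1140 and 2 in GOAT KO 1141. In WT 1120 they made up 15.3% of the gene's counts (20 of 131, exact 95% interval 9.58 to 22.6%), and in the other 7 libraries together 1.89% (5 of 265, 0.615 to 4.35%). WT 1120 was singled out after its values were seen. For *Th* the same shares were 16.7% in WT 1120 and 16.4% in the other 7 libraries. GOAT KO 1146, with 65 *Drd4* counts, and GOAT KO 1139, with 51, held 0 reads over its introns, which allows shares of up to 5.52% and 6.98%. The join of exons 3 and 4 printed above was crossed by 13 reads, all in WT 1120. The authors' assembly held the annotated *Drd4* transcript in that library alone. It held a *Th* transcript in 0 libraries, so absence from it does not show that a transcript was missing.

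*Drd4* levels were set beside those of 6 genes of antral granulosa cells, the cells that line large follicles and make oestradiol. All but *Lhcgr*, 5 of the 6, had been singled out by the study in these same libraries, so the list is not independent of them. The 6 genes summed to 849 CPM in WT 1118, 1136 in WT 1119, 1896 in WT 1120 and 1121 in WT 1121. In GOAT KO 1139, 1140, 1141 and 1146 the sums were 2068, 1326, 1611 and 1744 CPM. The 3 libraries with the lowest sums were the 3 with the lowest *Drd4*, all WT, while GOAT KO 1139 had the highest sum and only the third highest *Drd4*. Across the 8 libraries, which carry the same flow cell and lane in the names of the deposited files, log2 *Drd4* and the log2 sum had a Pearson r of 0.849 and a Spearman rho of 0.905. The Pearson r was 0.904 without WT 1120 and 0.947 without GOAT KO 1139 and WT 1118, the libraries farthest from the median sum. With 4 libraries a group no value was taken within groups. Gene by gene, the Pearson r was 0.899 for *Cyp19a1* (aromatase), 0.839 for *Inhbb* and 0.78 for *Inhba* (activin and inhibin subunits), 0.75 for *Hsd17b1*, 0.443 for *Nppc* and 0.157 for *Lhcgr*. These values moved with the libraries used, since *Nppc* had 0.744 without WT 1120 and 0.295 without its 2 farthest libraries, and *Hsd17b1* 0.546 without its 2 farthest. The part of follicle makeup in the *Drd4* levels was not tested.

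**Figure D2:**
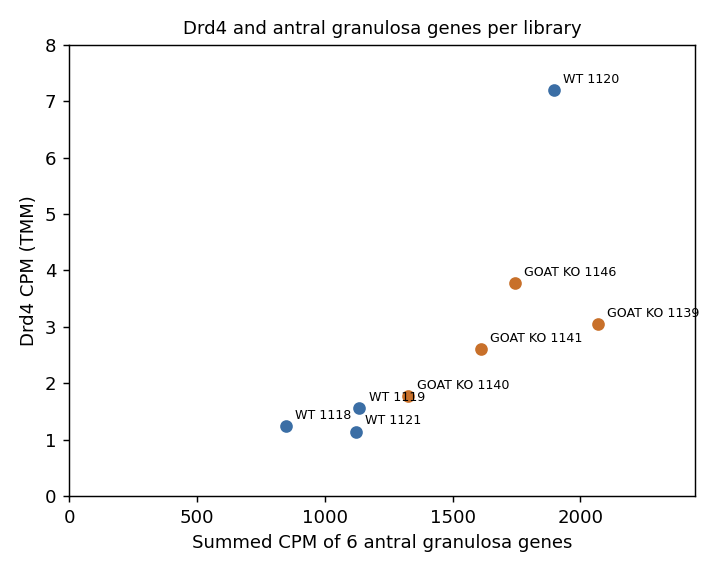
*Drd4* CPM (vertical axis) against the summed CPM of *Cyp19a1*, *Inhba*, *Inhbb*, *Hsd17b1*, *Nppc* and *Lhcgr* (horizontal axis), 1 point per library, WT in blue and GOAT KO in orange. WT 1120 lies at 1896 and 7.19 CPM, and the other 3 WT libraries lie at the lower left.

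Among the 5 tested genes whose log2 CPM followed *Drd4* most closely over 8 libraries were *1110004E09Rik* (Pearson r 0.974), *Hacd2* (0.971), *Aars2* (0.967) and *Mrps34* (0.966). Without WT 1120, or with Spearman in place of Pearson correlation, 0 of the 5 were among the top 5. The closest 3 genes were *Fam160a1* (0.982), *Ctnnbl1* and *Tm2d3* for *Th*, *Gm18180* (0.964), *2900076A07Rik* and *Cml2* for *Ddc*, and *Cd59b* (0.965), *Ubash3a* and *Gbe1* for *Adra1a*. Each list is the top of 16601 tested genes over only 8 values, where such high r can arise by chance. *Adra1a* also had only 7 to 15 counts per library. The lists were not tested and do not show that the genes are expressed together.

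*Drd1* (chr13:54051183-54055705, minus strand) encodes the main D1-like receptor. The WT libraries had 2, 1, 1 and 1 counts, the GOAT KO libraries 1, 1, 1 and 0, which makes 5 against 3. *Drd2* (chr9:49340627-49408177, plus strand), the main D2-like receptor, had 3, 0, 1 and 2 counts for WT and 0, 2, 1 and 1 for GOAT KO, which makes 6 against 4. At this depth a difference between the groups was not detectable for either gene. The log2 fold change was -0.65 (SE 0.89) for *Drd1* and -0.52 (SE 0.94) for *Drd2*, the latter changing to 0.05 without WT 1118. Of the receptors outside the 8 genes, *Drd3* had 7 counts in all libraries together and *Drd5* was listed at 0.

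*Adra1a* (chr14:66635251-66771168, plus strand) encodes an alpha-1 adrenoceptor, which signals through Gq. Counts of 11, 12, 8 and 9 were found for the WT libraries and of 15, 10, 10 and 7 for the GOAT KO libraries. The groups overlapped, and both the highest and the lowest CPM were in GOAT KO libraries, 0.897 in 1139 and 0.407 in 1146. The log2 fold change was 0.09 (SE 0.31) with 8 libraries and -0.26 (SE 0.34) with 6, so its sign turned with the libraries used. It was -0.15 without GOAT KO 1139 and -0.02 without WT 1120.

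*Adrb1* (chr19:56722199-56733113, plus strand) encodes the beta-1 adrenoceptor, which signals through Gs. The WT libraries held 5, 3, 4 and 7 counts, compared with 8, 0, 4 and 5 for the GOAT KO libraries. GOAT KO held both the highest library, 1139, and the lowest, 1140. The log2 fold change was -0.15 (SE 0.60), and -0.74 (SE 0.70) with 6 libraries. It was positive without WT 1121 (0.08) or GOAT KO 1140 (0.24) and -0.65 without GOAT KO 1139. A transcript with the *Adrb1* coding exon was in the authors' assembly of 7 libraries. The library labelled GOAT KO 1140, with 0 counts, was the one that lacked it. For *Th* and *Ddc*, with 689 and 356 counts in all, the assembly held a transcript in 0 libraries. Presence in the assembly thus did not follow the level.

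**Figure D3:**
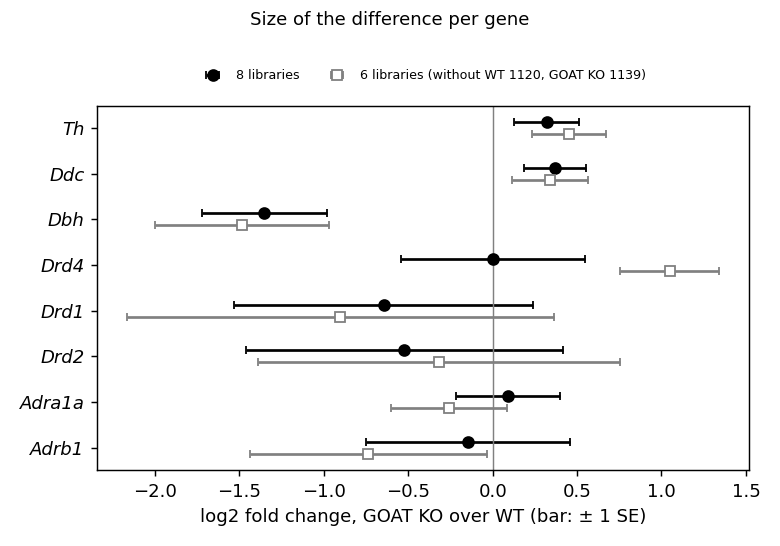
Log2 fold change of GOAT KO over WT (horizontal axis, ± 1 SE) for the 8 genes, with 8 libraries (filled circles) and with 6 libraries (open squares). *Drd4* moves from 0.0025 to 1.05 between the sets, *Adra1a* turns from 0.09 to -0.26, and *Dbh* stays below -1.

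The SD of log2 CPM over the 8 libraries, taken within groups, was 0.901 for *Drd4*, against 0.282 for *Th*, 0.227 for *Ddc* and 0.342 for *Adra1a*. The *Drd4* value rested on WT 1120, since without that library, a choice made after seeing the data, the SD was 0.367 for *Drd4* and 0.344 for *Adra1a*. *Th*, *Ddc*, *Drd4* and *Adra1a* were the 4 genes that passed the filter on low counts. The other 4, *Dbh*, *Drd1*, *Drd2* and *Adrb1*, did not pass.

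The rest of the pathway was described with 54 further genes of synthesis and cofactors, packaging and uptake, breakdown, reception and signalling, of which 38 passed the filter. With 8 libraries 0 of 38 reached an adjusted p under 0.05 in edgeR's quasi-likelihood test (Benjamini-Hochberg over all genes), where 0.0241% of all 16601 tested genes did. DESeq2 also gave 0, and 1 of the 38 had an unadjusted p under 0.05, where 4.62% of all genes did. With 6 libraries 5 of the 38 did, against 9.46% of all genes. By the study's filter, which asks for a log2 fold change beyond 0.5 in either direction at an unadjusted p under 0.05, 1 of 38 was called, against 1.67% of all genes. With 6 libraries it was again 1 of 38, against 2.39% of all genes. These shares were near the background. The log2 fold change was positive for 17 and negative for 21 of the 38, with a median of -0.01, and the median of all tested genes was -0.0003.

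The gene called was *Adra2a*, an alpha-2 adrenoceptor that signals through Gi. For WT its counts were 15, 36, 28 and 37, for GOAT KO 46, 37, 72 and 66. All GOAT KO libraries lay above all WT libraries in CPM, at 1.62 ± 0.512 for WT and 3.13 ± 0.754 for GOAT KO, and 1.38% of the genes with a count had all GOAT KO libraries above. In the pathway list *Arrb1* had all GOAT KO libraries below all WT libraries, as 1.05% of the genes with a count did. The same held for *Slc6a3* in CPM but not in counts, where WT 1118, GOAT KO 1141 and GOAT KO 1146 had 1 count each. *Adra2a* had a log2 fold change of 0.94 (SE 0.26, edgeR adjusted p = 0.983), and 0.97 with 6 libraries, so it did not pass the test over all genes. Of the other adrenoceptors, *Adra1b*, *Adra1d*, *Adra2b* and *Adra2c* had 38 to 60 counts each and did not pass the filter. *Adrb3*, the beta-3 adrenoceptor of fat cells, had 258 counts in GOAT KO 1139 and 2 to 12 in the other 7 libraries. In the same library the fat markers *Adipoq*, *Plin1* and *Cfd* summed to 290 CPM, against 8.05 to 20.6 CPM in the others.

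*Slc18a2*, the vesicular monoamine transporter VMAT2, had the highest level of the pathway list. It lay at 1055 ± 159 CPM for WT and 1011 ± 111 CPM for GOAT KO, with a log2 fold change of -0.06 (SE 0.11). Per length its level was 198 CPM per kilobase, against 2.06 for *Th*, and its reads crossed all 16 annotated introns. The other vesicular transporter, *Slc18a1*, had 65 counts in all libraries together. *Slc6a3*, the dopamine transporter, had 9 counts in WT and 2 in GOAT KO.

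Among the breakdown enzymes *Maoa* lay at 65.4 CPM for WT and 67.3 CPM for GOAT KO and *Maob* at 10.5 and 9.18 CPM. The smallest p of the other roles belonged to *Qdpr*, which regenerates tetrahydrobiopterin, the cofactor of *Th* (log2 fold change 0.13), to the uptake transporter *Slc22a3* (0.49), to *Maob* (-0.19) and to *Arrb1*, a beta-arrestin (-0.12). None of these 4 passed either threshold, and each had an edgeR adjusted p of 0.983.

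**Figure D4:**
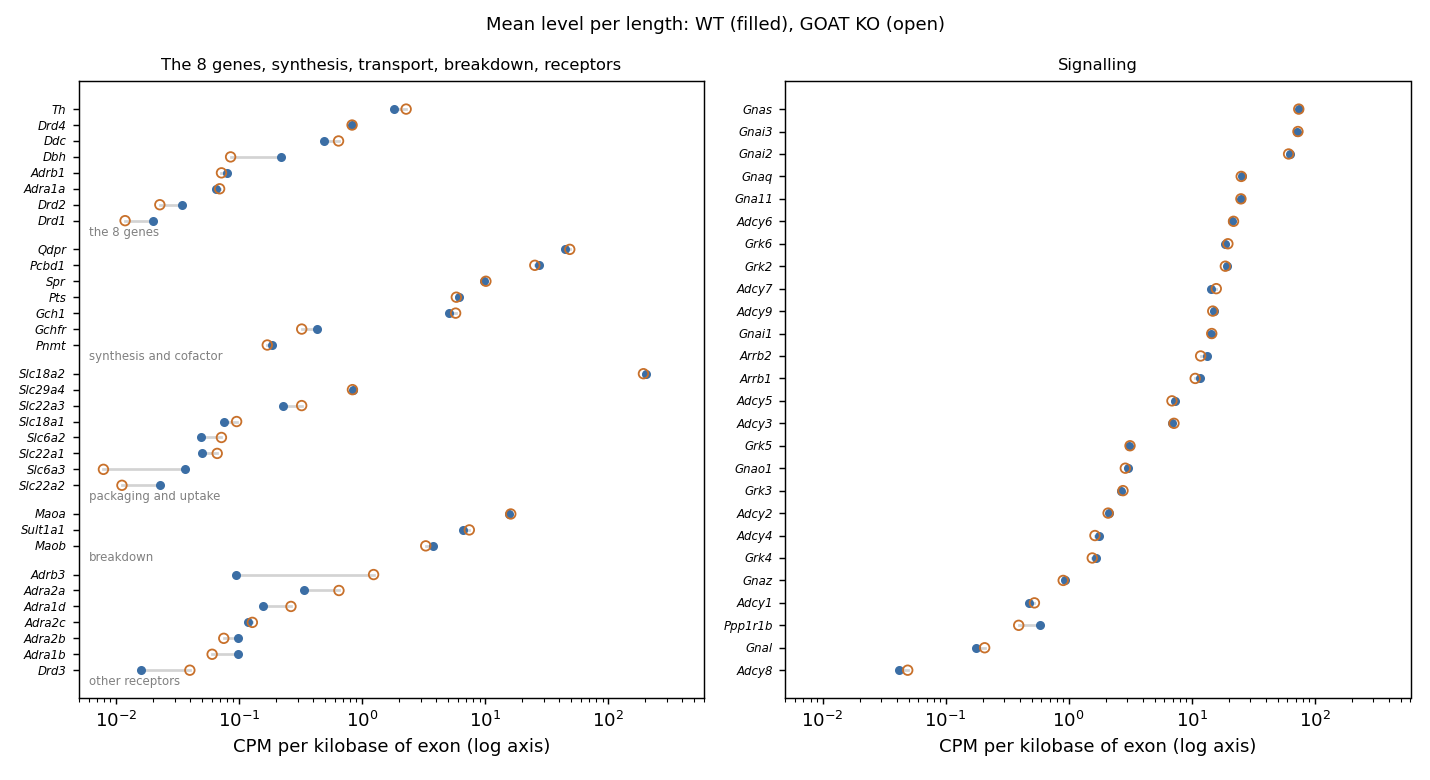
Mean CPM per kilobase of exon (horizontal log axis) for genes of the pathway with counts in both groups, by role, with WT as filled blue and GOAT KO as open orange circles joined by a grey line. *Slc18a2* lies at about 198 CPM per kilobase, far above the 8 genes at 0.0159 to 2.06, and *Adrb3*, *Slc6a3*, *Drd3* and *Dbh* have the widest gaps between the groups, at 304, 11, 7 and 58 counts in all.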

How the data were processed

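The authors cleaned 50 bp single reads, aligned them to mm10 (GRCm38) with TopHat2 2.0.14 and counted reads per known gene. The deposited gene counts are whole numbers without normalization. The deposited junction files give counts of reads over each junction, the deposited mapping summary gives percent of reads, and the score in the transcripts assembled by the authors with StringTie 1.0.4 was not used. The counting tool and its use of strand are not given in the sources used here.

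The comparison used edgeR 4.0.16 (R 4.3.3): TMM scaling, filterByExpr (minimum count 10, total 15) and the quasi-likelihood test, with 16601 genes tested. The SE is the absolute log2 fold change over the square root of F. Genes under the filter took their log2 fold change from the fit without it. CPM are TMM-scaled. Depth was 16147216 to 19481798 counts per library, and intervals are exact 95% intervals that cover counting error only. Pairs of libraries within a group differed by more than sampling noise (chi-square per gene 4.21 to 26.98), and which animals shared a litter is not given in the labels. Positions, exon lengths and joins came from GENCODE vM21 (GRCm38), a later release than the authors used. The study took 1 library per group as an outlier in its further analysis without naming it. The 6-library set, without WT 1120 and GOAT KO 1139, was chosen with earlier results known. The steps were tested on simulated data. DESeq2 1.42.0, RLE size factors, no filter, 6 libraries and leaving out each library were tried.

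The 8 genes and the lists were chosen with earlier results of these data known. Genes named are the 8, *Mboat4*, the other receptors, *Pnmt*, the vesicular and plasma membrane transporters, *Maoa*, *Maob*, genes called, the smallest p of each role and the genes of closest profile (5 for *Drd4*, 3 for others, log2 CPM with a prior count of 2). Some genes under this rule are not reported here.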

Additional observations from a re-analysis of the deposited data

Results flagged for a closer look

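In 66 groups of 4 values, 1 library lay far from the other 3 by Dixon's test in 7 cases, where chance gives about 1 in 20 groups. *Drd4* in WT 1120 was 7.19 CPM. *Drd1* lay at 0.124 CPM for WT 1118 and at 0 CPM for GOAT KO 1146, which stand for 2 counts and 0 counts where the others of each group had 1. *Maoa* was low in WT 1120, at 60.6 CPM, where the other 3 of its group lay at 66.5 to 67.3 CPM. The remaining 3 cases were all GOAT KO 1139, with *Adrb3* at 15.4 CPM, the fat markers at a sum of 290 CPM and the adrenal cortex markers at a sum of 5.44 CPM. No cause was tested for any of them.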

How the results depend on the processing

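No paired analysis by litter was possible because the labels do not give the litter of each animal. Genes at an adjusted p under 0.05 numbered 4, and 13 with DESeq2, 7 without the filter, 20 with 6 libraries and 3 to 14 when leaving out 1 library, 14 being without GOAT KO 1139. By the study's filter 278 genes were called, 691 without the filter on low counts and 231 to 437 when leaving out 1 library, 437 being without WT 1120. Of the pathway list 1 gene was called by the study's filter, 3 without the filter on low counts (*Adra2a*, *Adrb3* and *Slc6a3*) and 1 to 3 when leaving out 1 library, and *Adra2a* was among them every time. Without WT 1120 the 3 were *Adra2a*, *Adrb3* and *Gch1*. *Adrb3* was the second without WT 1119, GOAT KO 1141 or GOAT KO 1146, and *Ppp1r1b* without WT 1121. The *Drd4* log2 fold change was 1.05 with 6 libraries and -0.26 to 1.09 when leaving out 1 library, 1.09 being without WT 1120. That of *Adra1a* was -0.26 with 6 libraries. When leaving out 1 library *Drd1* ranged from -0.82 to -0.29 and *Drd2* from -1.06 to 0.0452. *Slc18a2* turned to 0.002484 without WT 1119 and *Slc22a3* to -0.14 without GOAT KO 1139 (at most 0.80 without GOAT KO 1146) and to -0.26 with 6 libraries. The causes were not tested. Of 176 alternative log2 fold changes of the 8 genes and of *Qdpr*, *Slc18a2*, *Slc22a3*, *Maoa*, *Maob*, *Adra2a* and *Arrb1*, 15 had the other sign, 6 of them for *Drd4*, 3 for *Adra1a*, 2 for *Adrb1*, 1 for *Drd2*, 2 for *Slc22a3* and 1 for *Slc18a2*. *Th*, *Ddc* and *Dbh* kept their direction under the alternatives tried, *Th* with 0.10 without GOAT KO 1141. Of the 250 alternative values, 224 stayed within the spread between libraries, on their side of the threshold or, for counts, within 1.5 times, while the others moved by more or, for *Slc18a2* and *Slc22a3*, reversed. Depth limits the 5 genes under 1 CPM, with 0 to 15 counts per library.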
